A study of Mus musculus with 19 samples.

Results

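The genes described here are 10 leukocyte adhesion genes measured in the RNA of CD11b+ cells from mouse brain. They are *Icam1*, *Vcam1*, *Selplg* and *Cd44*, which encode adhesion ligands and receptors, the integrin alpha chains *Itgal*, *Itga4*, *Itga5*, *Itga6* and *Itgav*, and the integrin beta chain *Itgb5*. The genes were taken by symbol, matched to the Ensembl identifiers of the count table through the GENCODE mouse annotation, and all 10 were found among the 56980 genes of the table. All 10 were also among the 18739 genes whose counts were high enough to be tested.

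The libraries came from 19 male mice, 3 to 4 months old, of a gene-trap *PARK7*/DJ-1 KO line backcrossed to C57BL/6NCrl mice and their wildtype littermates, so that both genotypes shared the strain. LPS, a bacterial cell wall component that activates the innate immune system, was injected intraperitoneally at 4 μg/g body weight, and the cells were collected 6 h later from 5 wildtype and 5 KO mice. The baseline groups were 4 wildtype and 5 KO mice that received PBS as the vehicle. Cells were enriched from perfused whole brain without olfactory bulb and cerebellum by magnetic beads against CD11b, an integrin chain of microglia that monocytes, neutrophils and border macrophages also carry, so the libraries are bulk RNA of a mixture.

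Leukocytes leave the blood in steps that use these molecules. Selectins on the vessel wall first catch glycoprotein ligands such as PSGL-1, the product of *Selplg*, after which activated integrins on the leukocyte bind ICAM-1 and VCAM-1 for firm arrest. Each integrin is a pair of 1 alpha and 1 beta chain: the product of *Itgal* pairs with beta2 to form LFA-1, the receptor for ICAM-1, and that of *Itga4* pairs with beta1 to form VLA-4, the receptor for VCAM-1. The products of *Itga5*, *Itga6*, *Itgav* and *Itgb5* serve mainly in binding the extracellular matrix, to fibronectin, laminins and vitronectin. In microglia, integrins anchor the cell and its processes, and alphaV integrins take part in the release of active TGF-beta.

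The promoters of 3 members that rose after LPS and for which a sequence was at hand are shown here, because they let a reader see which letters stand before genes that moved together. Each runs from 250 bases before to 50 bases after the start of transcription that RefSeq gives for the gene (table build GRCm38.p6) and is written 5′ to 3′ on the strand of the gene. The positions on GRCm39, found by an exact match that was unique in the genome, are chr9:20926986-20927285 on the plus strand for *Icam1*, chr2:102731961-102732260 on the minus strand for *Cd44* and chr15:103275169-103275468 on the minus strand for *Itga5*. Capitals mark a match to one of 4 motifs searched on both strands.
Icam1: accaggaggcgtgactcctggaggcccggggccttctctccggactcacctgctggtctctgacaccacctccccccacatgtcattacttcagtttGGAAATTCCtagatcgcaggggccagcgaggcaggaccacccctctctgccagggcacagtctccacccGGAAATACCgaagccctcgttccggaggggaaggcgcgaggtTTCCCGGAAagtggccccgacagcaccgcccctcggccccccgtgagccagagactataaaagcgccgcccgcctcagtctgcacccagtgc
Cd44: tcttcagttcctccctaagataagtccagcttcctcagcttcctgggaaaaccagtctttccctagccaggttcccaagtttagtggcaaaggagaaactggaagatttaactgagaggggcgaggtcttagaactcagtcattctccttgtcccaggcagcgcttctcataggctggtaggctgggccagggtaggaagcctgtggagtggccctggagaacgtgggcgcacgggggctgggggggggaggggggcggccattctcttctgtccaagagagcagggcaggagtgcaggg
Itga5: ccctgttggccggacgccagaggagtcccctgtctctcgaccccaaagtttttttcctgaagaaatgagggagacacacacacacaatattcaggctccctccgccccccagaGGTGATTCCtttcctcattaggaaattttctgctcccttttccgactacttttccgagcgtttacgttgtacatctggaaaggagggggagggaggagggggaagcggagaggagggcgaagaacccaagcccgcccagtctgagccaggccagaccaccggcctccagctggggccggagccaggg

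The *Icam1* promoter held 2 matches to an NF-kappaB-type motif (GGNNNTTCC), with their first bases 153 and 84 bases before the start and the second on the opposite strand, and 1 match to a STAT-type motif (TTCNNNGAA) with its first base 42 bases before the start. That of *Itga5* held 1 NF-kappaB-type match, 137 bases before the start, and that of *Cd44* held no match to any of the motifs. Promoters of 6 members had a sequence, the other 3 being *Itga4*, *Itgav* and *Itgb5*, and among these 3 only *Itgav* held a match, to a PU.1-type motif (GAGGAAGT) on the opposite strand, 9 bases before the start. None of the 6 held an AP-1-type motif (TGANTCA). Over all 32851 promoters of the same length, 18.5% held the NF-kappaB-type motif, 8.30% the STAT-type, 3.20% the PU.1-type and 7.81% the AP-1-type motif. A run of letters that fitted a motif on both strands was counted as 1 match. No 2 matches so counted in the members overlapped. A match is a run of letters and not a measured binding site.

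Wildtype LPS mouse 5 had the smallest library, of 11936364 counts, and the largest library held 22788884. A floor of 3 counts in a library corresponded to 0.139 to 0.256 CPM (counts scaled to a common library size, per 1000000 counts after TMM normalization), a limit that covers counting error only. *Park7*, the gene disrupted in the KO line, was at 25.2, 22.4, 21.2 and 20.6 CPM in the wildtype mice at baseline and at 24.2, 24.5, 32.1, 23.3 and 22.3 CPM in those given LPS. In the KO mice it was at 1.84, 2.59, 0.457, 0.89 and 2.54 CPM at baseline and 1.69, 3.03, 5.38, 2.01 and 5.12 CPM after LPS, below every wildtype mouse. All 9 microglia markers found in the table, among them *P2ry12* and *Tmem119*, were detected in every library, with a summed level of 25267 to 40571 CPM in the baseline mice. Myelin RNA varied between mice within each group: the sum of 6 oligodendrocyte markers ran from 523 to 11303 CPM, and leaving out the highest library of each group (wildtype PBS mouse 2, wildtype LPS mouse 2, KO PBS mouse 1 and KO LPS mouse 1) changed no call among the members other than that of *Itgav*, given with that gene.

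After LPS, 5 of the 10 genes rose and 3 fell in both genotypes. *Cd44*, *Itgal*, *Itga5*, *Vcam1* and *Icam1* rose between 5.51-fold and 19.6-fold in wildtype mice and between 4.92-fold and 15.1-fold in KO mice. *Itga6*, *Selplg* and *Itgb5* fell between 2.41-fold and 4.21-fold in wildtype and between 2.55-fold and 4.53-fold in KO mice, *Itgav* fell 1.43-fold in KO mice, and *Itga4* passed the test in neither genotype. At an adjusted p-value under 0.05 with |log2FC| of at least 0.5 (edgeR's quasi-likelihood test, Benjamini-Hochberg over all genes tested), 5 of 10 members were higher and 3 of 10 lower after LPS in wildtype mice, where 18.4% of all tested genes were higher and 17.4% lower. In KO mice, 5 members were higher and 4 lower, against 20.1% and 19% of all genes. The median log2FC of the members was 1.44 in wildtype and 1.23 in KO mice, beside -0.063 and -0.01 over all genes tested. Each median lay in a gap that held no member, between *Itga4* at 0.43 and *Icam1* at 2.46 in wildtype mice. In KO mice the gap ran from *Itga4* at 0.15 to *Vcam1* at 2.3. The values of every mouse are shown in the plot of the 10 genes by mouse.

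**Figure D1:**
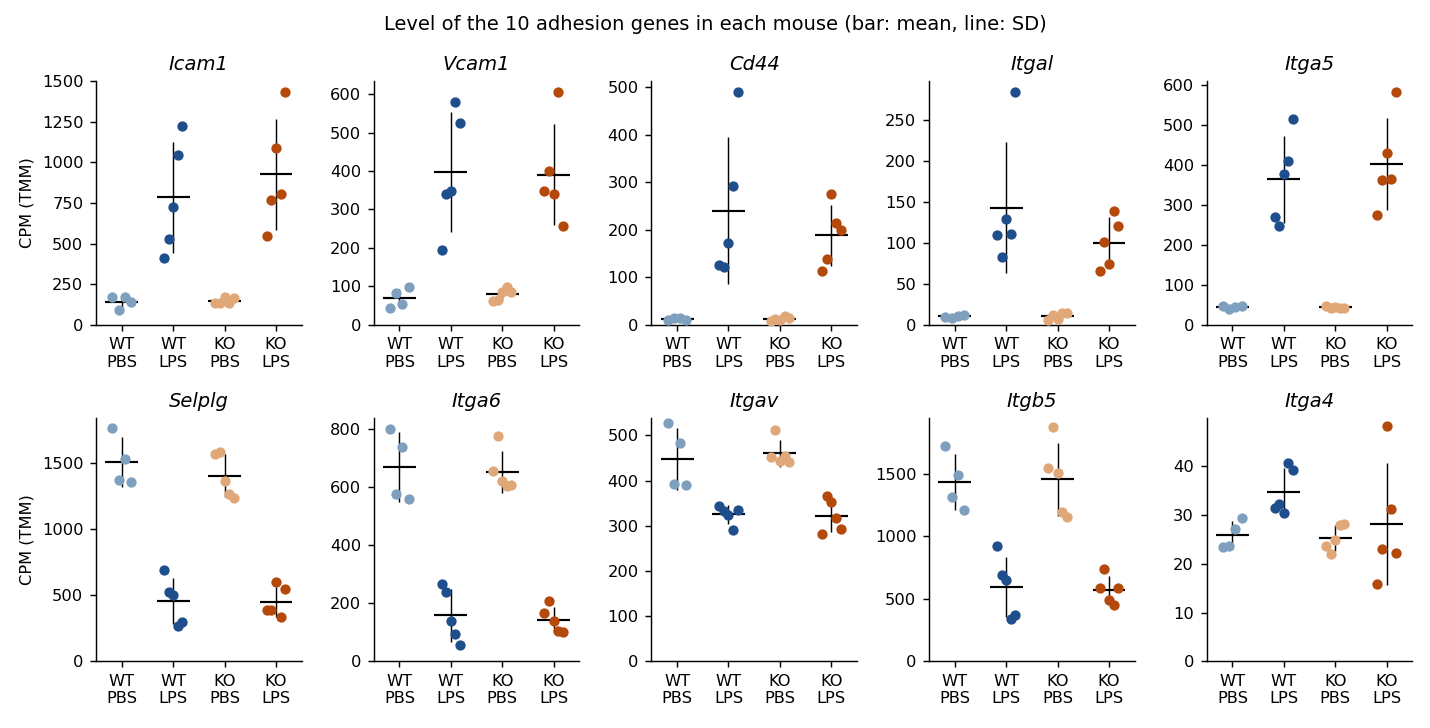
Level of each of the 10 genes in CPM (linear axis from 0) in each mouse, by genotype (WT, wildtype) and treatment; each point is 1 mouse, the horizontal bar is the mean and the vertical line 1 SD (4 wildtype PBS mice, 5 mice in each other group). *Icam1*, *Vcam1*, *Cd44*, *Itgal* and *Itga5* are higher and *Selplg*, *Itga6* and *Itgb5* lower in every LPS mouse than in every PBS mouse; for *Itga4* the KO LPS mice spread from 15.9 to 48.2 CPM, across the KO PBS mice.

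*Icam1* (ENSMUSG00000037405, chr9:20926672-20940113, plus strand, GRCm39) encodes the ligand that stimulated endothelium, microglia and other cells present to LFA-1 and to the CD11b integrin. In wildtype mice, its level was 173, 92.2, 168 and 138 CPM at baseline and 414, 526, 723, 1046 and 1223 CPM after LPS. In KO mice, the level of *Icam1* was 136, 136, 172, 135 and 165 CPM at baseline and 546, 768, 1089, 804 and 1435 CPM after LPS. Every LPS mouse of either genotype was above every baseline mouse, and the LPS mice spread more than the baseline mice, with wildtype mouse 1 and KO mouse 1 the lowest of their groups and mouse 5 the highest in both. The log2FC of *Icam1* was 2.46 (SE 0.32, edgeR, adjusted p = 4.72e-06) in wildtype and 2.64 (SE 0.296, adjusted p = 6.36e-07) in KO mice, which is 5.51-fold and 6.23-fold.

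*Vcam1* (ENSMUSG00000027962, chr3:115903598-115923355, minus strand) encodes the ligand of VLA-4 and is best known from activated endothelium. It was at 44.7, 81.7, 53.7 and 97.9 CPM in wildtype mice at baseline and at 194, 339, 347, 580 and 525 CPM after LPS. In the KO groups, *Vcam1* was at 62.5, 64.4, 86.3, 98.2 and 84.2 CPM at baseline and at 348, 399, 340, 606 and 256 CPM after LPS. The LPS mice again lay above all baseline mice, with wildtype mouse 1 and KO mouse 5 the lowest. The log2FC was 2.51 (SE 0.32, edgeR, adjusted p = 3.77e-06) in wildtype and 2.30 (SE 0.291, adjusted p = 2.81e-06) in KO mice. *Vcam1* is also expressed by endothelial cells, whose 10 markers were summed as a check. None of these markers rose and 6 fell after LPS in wildtype mice, while 1 rose and 6 fell in KO mice, and the sum was 385 to 1297 CPM in wildtype mice at baseline, 125 to 714 CPM in those given LPS, 584 to 1181 CPM in KO mice at baseline and 47.4 to 757 CPM in KO mice given LPS. The lowest sums of the LPS groups were those of wildtype mouse 1 and KO mouse 5, the mice lowest in *Vcam1*. The highest sums were those of wildtype mouse 2 and KO mouse 1, with *Vcam1* at 339 and 348 CPM. In both LPS groups mouse 4 was the highest in *Vcam1*, with endothelial sums of 596 CPM in wildtype and 389 CPM in KO. Neither *Cldn5* nor *Cdh5* was at 0 in any library. What part endothelial RNA had in the *Vcam1* level was not tested. In such bulk libraries, fewer cells of a type and less RNA per cell cannot be told apart.

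*Cd44* (ENSMUSG00000005087, chr2:102641486-102732010, minus strand) encodes a receptor for hyaluronan and osteopontin that activated leukocytes carry. Its level in wildtype mice was 10.3, 14.1, 14.8 and 9.87 CPM at baseline and 126, 122, 172, 291 and 489 CPM after LPS. For KO mice, *Cd44* was at 8.41, 11.6, 9.65, 17.9 and 14.7 CPM at baseline and 113, 138, 275, 215 and 199 CPM after LPS. The lowest LPS mouse of either genotype was far above the highest baseline mouse, and wildtype LPS mouse 5 stood highest of all 19. With a log2FC of 4.29 (SE 0.427, edgeR, adjusted p = 2.06e-07) in wildtype and 3.91 (SE 0.381, adjusted p = 1.18e-07) in KO mice, *Cd44* had the largest fold change of the 10 genes in both genotypes.

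*Selplg* (ENSMUSG00000048163, chr5:113956597-113970705, minus strand), the gene of the selectin ligand PSGL-1, had the highest baseline level per length of the members and moved the other way. It was at 1763, 1372, 1523 and 1352 CPM in wildtype mice at baseline and at 689, 524, 502, 265 and 298 CPM after LPS. KO mice held *Selplg* at 1568, 1577, 1361, 1266 and 1231 CPM at baseline and at 387, 387, 598, 335 and 546 CPM after LPS. No LPS mouse reached the lowest baseline mouse. The log2FC was -1.72 (SE 0.237, edgeR, adjusted p = 9.46e-06) in wildtype and -1.64 (SE 0.228, adjusted p = 8.5e-06) in KO mice, a fall of 3.30-fold and 3.11-fold. All 9 microglia markers fell after LPS in both genotypes as well, their sum being 10565 to 17005 CPM in wildtype and 10926 to 16955 CPM in KO mice given LPS. Of 7 markers of border macrophages, 4 fell in both genotypes, with sums of 533 to 646 CPM at baseline and 307 to 527 CPM after LPS in wildtype mice and of 489 to 652 CPM and 274 to 492 CPM in KO mice. What part the fall in microglial or border macrophage RNA had in the level of *Selplg*, *Itga6*, *Itgav* or *Itgb5* was not tested.

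*Itgal* (ENSMUSG00000030830, chr7:126895432-126934320, plus strand), the alpha chain of LFA-1, rose from 9.07, 8.24, 10.9 and 12.4 CPM in wildtype mice at baseline to 109, 82.6, 129, 110 and 283 CPM after LPS. In KO mice, *Itgal* rose from 5.65, 11.5, 7.26, 13.8 and 14.2 CPM at baseline to 65.5, 101, 73.6, 139 and 120 CPM after LPS. Wildtype LPS mouse 5 was again the highest of all 19, well above the next mouse, and the treatments stayed apart in both genotypes. The log2FC was 3.81 (SE 0.382, edgeR, adjusted p = 2.23e-07) in wildtype and 3.25 (SE 0.339, adjusted p = 2.72e-07) in KO mice. LFA-1 is carried by blood leukocytes in particular, and monocyte markers moved in the same direction: all 7 rose in both genotypes, with a summed level of 37.9 to 55.2 CPM in wildtype mice at baseline, 343 to 627 CPM in those given LPS, 29.5 to 69.1 CPM in KO mice at baseline and 221 to 596 CPM in KO mice given LPS. Of 9 neutrophil markers, 5 rose in wildtype and 6 in KO mice, with sums of 64.2 to 115 CPM and 178 to 491 CPM in the wildtype groups and of 27.9 to 201 CPM and 112 to 474 CPM in the KO groups. The monocyte marker *Ly6c2* had 3 to 1089 counts and the neutrophil marker *Ly6g* 3 to 30 counts over the 19 libraries. Both thus reached down to the floor of 3 counts. Of 9 T and NK cell markers only 3 had enough counts to be tested, of which 1 rose in both genotypes. Their sum was 1.24 to 1.77 CPM at baseline and 2.17 to 9.23 CPM after LPS in wildtype mice, and 0.61 to 1.43 CPM and 0.794 to 4.47 CPM in KO mice. The T cell marker *Cd3e* was at 0 in 12 libraries with at most 2 counts, while *Gzma*, found in NK cells, had 3 to 98 counts in all libraries. What part RNA of blood leukocytes had in the rise of *Itgal*, *Cd44* or *Itga5* was not tested.

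*Itga5* (ENSMUSG00000000555, chr15:103252713-103275270, minus strand), the alpha chain of the fibronectin receptor, had the smallest p-value of the members in both genotypes. It was at 47.9, 39.3, 44.5 and 45.8 CPM in wildtype mice at baseline and at 270, 248, 378, 409 and 515 CPM after LPS. For KO mice, the levels of *Itga5* were 46.7, 41, 45, 43 and 42.2 CPM at baseline and 274, 362, 430, 366 and 583 CPM after LPS. The baseline mice lay within a narrow band, with a coefficient of variation of 8.27% in wildtype and 5.25% in KO mice, and every LPS mouse was well above it. The log2FC was 3.04 (SE 0.221, edgeR, adjusted p = 6.35e-09) in wildtype and 3.21 (SE 0.203, adjusted p = 7.76e-10) in KO mice, or 8.20-fold and 9.25-fold.

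*Itga6* (ENSMUSG00000027111, chr2:71575960-71689757, plus strand), the alpha chain of laminin receptors, was at 803, 576, 741 and 559 CPM in wildtype mice at baseline and at 268, 239, 140, 93.2 and 55.8 CPM after LPS. In the KO mice, *Itga6* was at 657, 777, 622, 605 and 608 CPM at baseline and 168, 207, 139, 106 and 101 CPM after LPS. The groups did not overlap, and within the wildtype LPS group the highest mouse was 4.8-fold above the lowest, the widest such spread among the members. The fall was 4.21-fold in wildtype (log2FC -2.07, SE 0.334, edgeR, adjusted p = 5.36e-05) and 4.53-fold in KO mice (log2FC -2.18, SE 0.324, adjusted p = 1.8e-05). *Itgb5* (ENSMUSG00000022817, chr16:33649988-33771137, plus strand), the beta chain that pairs with alphaV to form a vitronectin receptor, was at 1720, 1311, 1487 and 1206 CPM in wildtype mice at baseline and at 918, 692, 652, 340 and 371 CPM after LPS. In KO mice, the values of *Itgb5* were 1547, 1870, 1506, 1196 and 1156 CPM at baseline and 587, 735, 492, 449 and 586 CPM after LPS. Here too every LPS mouse was below every baseline mouse, and wildtype LPS mouse 1 was the nearest to baseline. *Itgb5* fell 2.41-fold in wildtype (log2FC -1.27, SE 0.246, edgeR, adjusted p = 0.000353) and 2.55-fold in KO mice (log2FC -1.35, SE 0.236, adjusted p = 0.000103).

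*Itgav* (ENSMUSG00000027087, chr2:83554403-83637260, plus strand), the alphaV chain, had a smaller log2FC than its partner *Itgb5*, a difference that was not tested. It was at 527, 392, 483 and 390 CPM in wildtype mice at baseline and at 344, 332, 324, 291 and 336 CPM after LPS. KO mice had *Itgav* at 452, 513, 443, 455 and 441 CPM at baseline and at 282, 365, 353, 318 and 292 CPM after LPS. The treatments did not overlap in either genotype. In KO mice the log2FC of *Itgav* was -0.52 (SE 0.103, edgeR, adjusted p = 0.000378), just past the fold threshold, and in wildtype mice it was -0.46 (SE 0.109, adjusted p = 0.00194), just short of it. The fold threshold alone decided which genotype was called, and the call changed sides without the 4 libraries rich in myelin RNA, where the log2FC of *Itgav* was -0.55 in wildtype and -0.47 in KO mice. In wildtype mice it was also past the threshold without wildtype PBS mouse 2 (-0.50), and in KO mice it fell short without KO PBS mouse 2 (-0.48), KO LPS mouse 1 (-0.46), KO LPS mouse 4 (-0.50) or KO LPS mouse 5 (-0.48).

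*Itga4* (ENSMUSG00000027009, chr2:79085660-79163467, plus strand), the alpha chain of VLA-4, was the only member that passed the test in neither genotype. Its level in wildtype mice was 23.4, 23.6, 27 and 29.4 CPM at baseline and 31.3, 32.2, 30.3, 40.6 and 39.2 CPM after LPS. In the KO groups, *Itga4* was at 23.7, 21.9, 24.9, 27.8 and 28.1 CPM at baseline and 15.9, 22.9, 48.2, 31.2 and 22.2 CPM after LPS. The wildtype LPS mice were all above the wildtype baseline mice by a small margin, whereas of the KO LPS mice 2 were above all KO baseline mice, 1 was below all of them and 2 lay among them, with mouse 3 at the top. The log2FC was 0.43 (95% interval -0.044 to 0.89, edgeR, adjusted p = 0.142) in wildtype and 0.15 (95% interval -0.29 to 0.59, adjusted p = 0.6) in KO mice. *Itga4* shares 20.8% of its annotated exon bases with *Cerkl* on the opposite strand, and whether the counting used the strand of the libraries is not given in the sources used here, so part of its reads could belong to that gene. The other members share between 0 and 12.6% of their exon bases with other genes, none of them on the same strand.

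**Figure D2:**
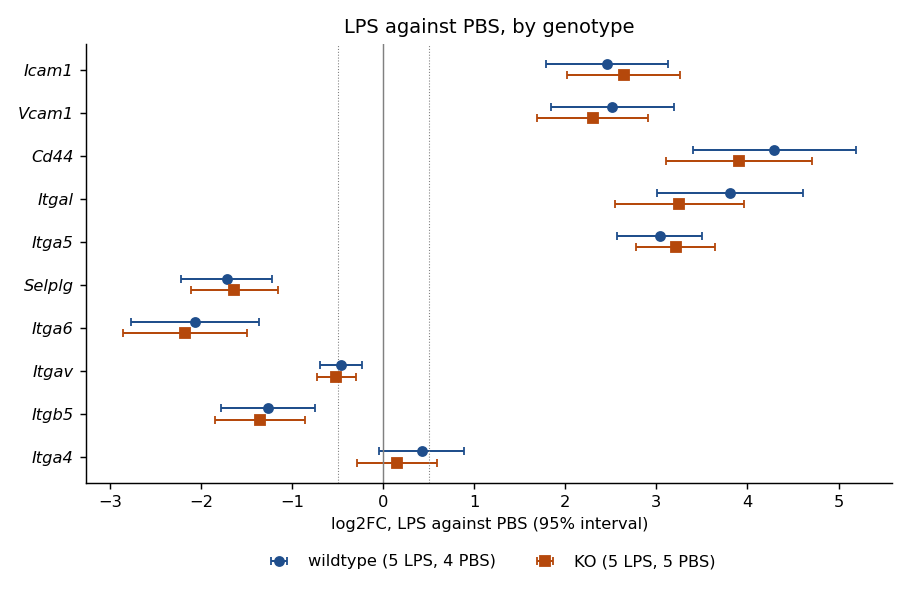
log2FC of LPS against PBS for each gene in wildtype mice (circles) and KO mice (squares), with the 95% interval from the edgeR fit; dotted lines mark |log2FC| of 0.5. The intervals of the 2 genotypes overlap for every gene, and those of *Itga4* include 0 in both.

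The groups given LPS and PBS did not overlap for all 10 members in wildtype mice and for 9 of 10 in KO mice, *Itga4* being the exception, while 37.8% and 32.8% of all tested genes were so separated in the 2 genotypes. Some mice stood at the ends of the range for several members. Among the wildtype LPS mice, mouse 5 was the highest for 4 members (*Icam1*, *Cd44*, *Itgal*, *Itga5*) and the lowest for *Itga6*, while mouse 1 was the highest for *Selplg*, *Itga6*, *Itgav* and *Itgb5* and the lowest for *Icam1* and *Vcam1*. Mouse 2 was the lowest for *Cd44*, *Itgal* and *Itga5*, and mouse 4 was the lowest for *Selplg*, *Itgav* and *Itgb5* and the highest for *Vcam1* and *Itga4*. Mouse 5 had the highest monocyte marker sum of that group, 627 CPM, and mouse 2 the lowest, 343 CPM, while mouse 1 had the highest microglia marker sum, 17005 CPM, and mouse 4 the lowest, 10565 CPM. The neutrophil marker sum of mouse 5 was 254 CPM, lower than in mice 2, 3 and 4, at 267, 462 and 491 CPM. In KO LPS mice, mouse 1 was the lowest for 6 members, and it had the lowest monocyte sum of its group, 221 CPM, and the highest oligodendrocyte sum of all libraries, 11303 CPM. KO LPS mouse 3 had the highest monocyte sum of its group, 596 CPM. That mouse was the highest of its group in *Cd44*, at 275 CPM, but had *Itgal* at 73.6 CPM, above only mouse 1. Whether these marker levels had a part in the order of the mice was not tested.

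To compare levels between genes, CPM was divided by the length of the annotated exons in kb, which counts the exons of all isoforms and so understates genes with long rare ones. In wildtype mice at baseline the mean CPM per kb ran from *Selplg* at 351 ± 44.4 (SD, n = 4) and *Itgb5* at 203 ± 31.8 through *Itga6* at 58.8 ± 10.6, *Itgav* at 36.3 ± 5.56 and *Icam1* at 28.7 ± 7.44 to *Itga5* at 8.34 ± 0.69 and *Vcam1* at 7.73 ± 2.74. *Cd44* at 1.81 ± 0.377, *Itga4* at 1.55 ± 0.174 and *Itgal* at 1.54 ± 0.285 came last. Neighbours in this order overlapped over mice for *Itgav* with *Icam1*, *Itga5* with *Vcam1*, and *Cd44*, *Itga4* and *Itgal* with each other, while the first 3 genes stood apart from their neighbours. In KO mice at baseline the order was the same but for *Vcam1* at 8.80 ± 1.70 (n = 5) before *Itga5* at 8.19 ± 0.429, which overlapped. The last 2 genes, *Itgal* at 1.59 ± 0.586 and *Itga4* at 1.51 ± 0.16, overlapped too. In wildtype mice the means of these 2 were too close to be put in order. After LPS in wildtype mice the order was led by *Icam1* at 158 ± 68.9 CPM per kb (SD, n = 5), followed by *Selplg* at 107 ± 41, *Itgb5* at 84.2 ± 34.1, *Itga5* at 68.4 ± 20.4, *Vcam1* at 44.2 ± 17.3, *Cd44* at 35.4 ± 22.9, *Itgav* at 26.4 ± 1.64, *Itgal* at 21.7 ± 12.2 and *Itga6* at 14.0 ± 8.05, and each of these overlapped its neighbour over mice. *Itga4*, at 2.08 ± 0.288, stood apart at the end. The same order held in KO mice after LPS, from *Icam1* at 187 ± 69 to *Itga4* at 1.68 ± 0.747, and there *Itgav* was above *Itgal* in every mouse of the group.

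The 4 members that encode alpha chains pairing with beta1, beta3 or beta5 were also compared as shares of their own sum, which leaves out other such chains, among them *Itga9*, named after its values were seen, at 28.4 ± 3.39 CPM per kb (SD, n = 4) in wildtype mice at baseline and 12.2 ± 1.70 (n = 5) after LPS. Of the summed CPM per kb of *Itga4*, *Itga5*, *Itga6* and *Itgav*, *Itga5* took 8.04% ± 1.01 (SD, n = 4) in wildtype mice at baseline and 60.8% ± 11.7 (n = 5) after LPS. In KO mice the share of *Itga5* was 7.89% ± 0.805 (n = 5) and 64.3% ± 7.69 (n = 5). *Itga6* went from 55.8% ± 1.48 to 13.3% ± 8.53 in wildtype and from 54.9% ± 1.57 to 11.3% ± 4.42 in KO mice. Among the alpha chains that pair with beta2, *Itgal* held 2.40% ± 0.797 at baseline and 21.2% ± 9.42 after LPS in wildtype mice, and 2.42% ± 1.41 and 16.7% ± 5.08 in KO mice. *Itgam*, which encodes CD11b, the protein used to collect the cells, held 90.0% ± 1.58 and 73.0% ± 9.22 in wildtype and 90.2% ± 2.77 and 76.9% ± 5.03 in KO mice. Its lower share was not a lower level. The mean of *Itgam* was 312 CPM at baseline and 370 CPM after LPS in wildtype mice, and 342 and 359 CPM in KO mice. These shares are a description of RNA per length, without a test, and not of assembled receptors.

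**Figure D3:**
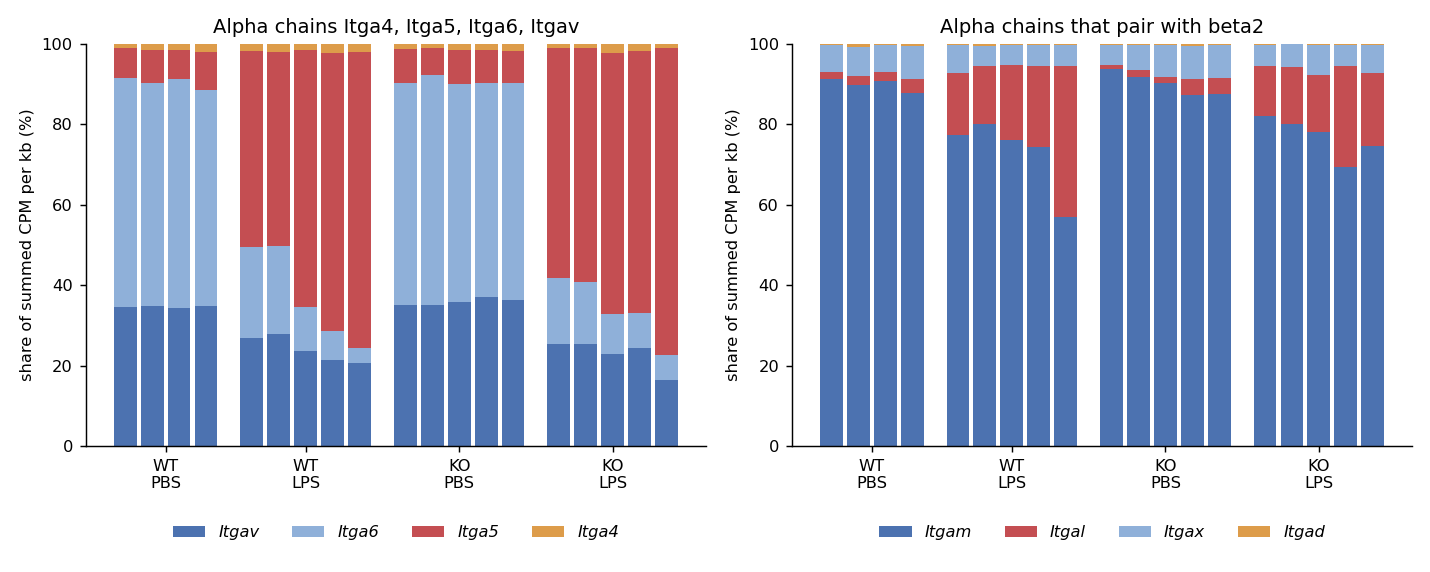
Share of each alpha chain in the summed CPM per kb of its set (vertical axis, 0 to 100%), 1 bar per mouse, by genotype and treatment; left, the members *Itga4*, *Itga5*, *Itga6* and *Itgav*; right, the chains that pair with beta2. *Itga5* held 48.3% to 76.4% of the left set in the mice given LPS and 6.48% to 9.44% in the baseline mice.

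The comparison of KO with wildtype mice asked whether loss of DJ-1 altered these genes. No member was called after LPS or at baseline, at an unadjusted p-value under 0.05 with |log2FC| of at least 0.5, where 1.31% of all tested genes were called after LPS and 0.800% at baseline. At an adjusted p-value under 0.05, 2 of 18739 genes (0.0107%) were called after LPS and 1 (0.00534%) at baseline, none of them a member. The smallest unadjusted p-value of a member was 0.113 after LPS and 0.535 at baseline (edgeR), and DESeq2 gave 0 members under 0.05 in both comparisons. For all 10 genes the KO and wildtype mice overlapped in both conditions, whereas 0.219% and 0.971% of all genes were separated.

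*Itgal* had a log2FC after LPS of -0.51 in KO against wildtype mice (95% interval -1.16 to 0.13, edgeR, unadjusted p = 0.113, adjusted p = 1). The 5 KO mice lay between 65.5 and 139 CPM and the 5 wildtype mice between 82.6 and 283 CPM, so the groups overlapped between 82.6 and 139 CPM. The value rested on single mice: leaving out 1 library at a time gave -0.66 to -0.11, with -0.11 without wildtype LPS mouse 5, the highest in *Itgal*, and -0.65 with an unadjusted p of 0.0491 (edgeR) without wildtype LPS mouse 2. *Cd44* differed by -0.35 (95% interval -1.06 to 0.35), *Itga4* by -0.31 (95% interval -0.75 to 0.13) and *Icam1* by 0.24 (95% interval -0.34 to 0.82). The difference in *Cd44* ranged from -0.53 to 0.081 when single libraries were left out and turned sign without wildtype LPS mouse 5, and that in *Icam1* ranged from 0.027, without KO LPS mouse 5, to 0.46, without wildtype LPS mouse 5. Without KO LPS mouse 3, the highest in *Itga4*, that gene was at -0.59 with an unadjusted p of 0.00179 (edgeR), and without KO LPS mouse 1, the lowest, it was at -0.15. The remaining 6 members differed by -0.14 to 0.15, and none of them kept its sign when each library was left out in turn: their values then ran from -0.36 (*Itga6*) to 0.31 (*Itga5*), both without wildtype LPS mouse 5. *Itga6* turned to 0.13 without wildtype LPS mouse 1, *Itga5* to -0.024 without KO LPS mouse 5, and *Vcam1*, at -0.027 with all mice, ran from -0.24 without KO LPS mouse 4 to 0.15 without wildtype LPS mouse 4. The narrowest interval was that of *Itgav*, -0.23 to 0.20, and the widest that of *Cd44*. At baseline the 10 differences ran from -0.10 (*Selplg*, 95% interval -0.59 to 0.39) to 0.19 (*Vcam1*, 95% interval -0.43 to 0.81). Single mice moved these too: *Vcam1* was at 0.026 without wildtype PBS mouse 1 and at 0.41 without wildtype PBS mouse 4, *Selplg* was at -0.15 without KO PBS mouse 1 and at -0.015 without wildtype PBS mouse 1, and the other 8 members changed sign without at least 1 of the mice.

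**Figure D4:**
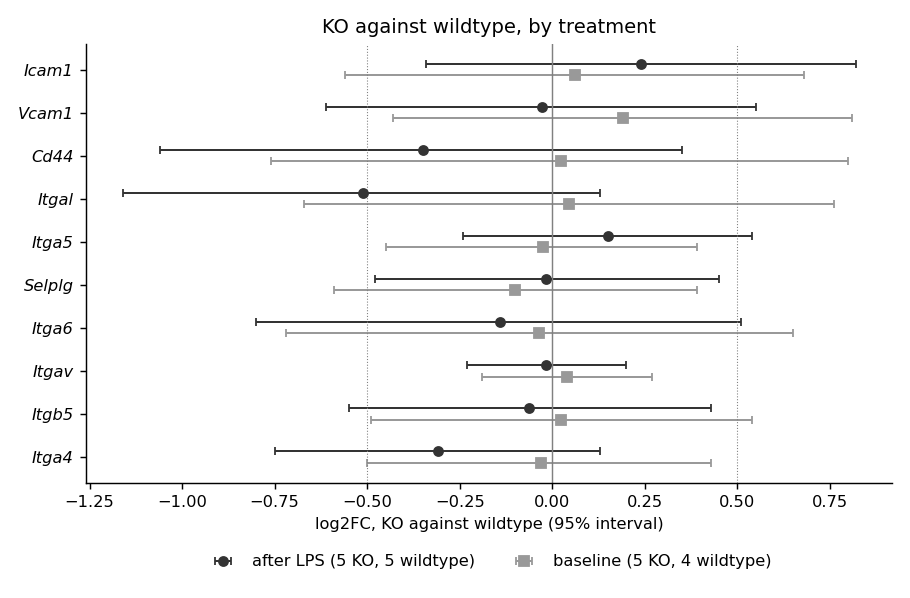
log2FC of KO against wildtype mice for each gene after LPS (circles) and at baseline (squares), with the 95% interval from the edgeR fit; dotted lines mark |log2FC| of 0.5. Every interval includes 0, and that of *Itgal* after LPS runs from -1.16 to 0.13.

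Whether the response to LPS itself differed between genotypes was tested by the interaction. None of the 10 members passed at an adjusted p-value under 0.05, nor did any of the 18739 genes (0%). At an unadjusted p under 0.05, 180 genes (0.961%) and no member passed in edgeR, and DESeq2 gave 0 genes at an adjusted p under 0.05, with 223 genes and no member at an unadjusted p under 0.05. The interaction term subtracts the wildtype response from the KO response. For *Itgal* it was -0.56 (95% interval -1.52 to 0.41, edgeR, unadjusted p = 0.24), and from -0.72 to -0.15 with single libraries left out, the last without wildtype LPS mouse 5. For *Cd44* it was -0.38 (95% interval -1.43 to 0.68), and from -0.55 to 0.057, again with the last value without that mouse. *Itga4* was at -0.27, with -0.56 without KO LPS mouse 3 and -0.12 without KO LPS mouse 1. The other members were at -0.22 (*Vcam1*), -0.11 (*Itga6*), -0.086 (*Itgb5*), -0.056 (*Itgav*), 0.086 (*Selplg*), 0.17 (*Itga5*) and 0.18 (*Icam1*). With single libraries left out *Vcam1* ran from -0.44, without wildtype PBS mouse 4, to -0.038, without wildtype LPS mouse 4, and *Itga5* from 0.0028, without KO LPS mouse 5, to 0.33, without wildtype LPS mouse 5. *Icam1* ran from -0.035 to 0.39 without the same 2 mice as *Itga5*, and *Itga6* from -0.32, without wildtype LPS mouse 5, to 0.16, without wildtype LPS mouse 1. *Selplg* and *Itgb5* changed sign as well, *Selplg* at -0.057 without wildtype LPS mouse 4 and *Itgb5* at 0.13 without wildtype LPS mouse 1, and *Itgav* ran from -0.15, without wildtype PBS mouse 1, to -0.0023, without wildtype PBS mouse 2. With all mice included, the intervals of all 10 members include 0, and the narrowest was that of *Itgav*, -0.37 to 0.26.

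The beta chains that are not members, and the wider adhesion machinery, were followed through 5 lists of 87 genes, of which 81 were tested. Wildtype mice had 16 of these higher and 20 lower after LPS, and KO mice had 17 of each. These counts out of 81 stand beside the shares of all tested genes, 18.4% higher and 17.4% lower in wildtype and 20.1% and 19% in KO mice, and the same shares are the background for each of the lists. *Itgb2*, the partner of *Itgal* and *Itgam*, had a log2FC of 0.086 (95% interval -0.25 to 0.42) in wildtype and 0.028 in KO mice, and *Itgb1*, the partner of *Itga4*, *Itga5* and *Itga6*, one of -0.11 (95% interval -0.38 to 0.17) and -0.11. *Itgam* was at 0.25 and 0.069. None of these 3 was called. *Itgb3*, which pairs with *Itgav*, fell in both genotypes, by 1.44 and 1.54 on the log2 scale (edgeR, adjusted p = 2.49e-06 and 5.53e-07). *Itgb7*, a partner of *Itga4* found on gut-homing lymphocytes and other leukocytes, rose by 1.75 and 1.66 (edgeR, adjusted p = 1.2e-05 and 7.27e-06) from a low level, 3.28 to 3.88 CPM in wildtype mice at baseline. *Itgae* fell by 1.25 and 1.80, and of the 19 tested other integrin subunits 2 were higher and 3 lower in each genotype.

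Among 21 other adhesion receptors, 5 rose and 7 fell in wildtype mice and 5 rose and 6 fell in KO mice, beside 18.4% and 17.4% of all genes in wildtype and 20.1% and 19% in KO mice. The selectin genes *Selp* and *Sele*, whose products bind PSGL-1, were among those that rose. *Selp*, the selectin of platelets and endothelium, had 0, 2, 9 and 1 counts in the wildtype baseline mice and 194 to 946 counts in the wildtype LPS mice, and 1 to 4 counts and 63 to 384 counts in the KO groups. *Sele*, the endothelial selectin, had 1 count in 1 of the 4 wildtype baseline mice and none in the other 3, against 53 to 290 counts after LPS, and at most 5 counts in a KO baseline mouse against 26 to 306 counts after LPS. KO LPS mouse 5, the lowest in the endothelial marker sum, was the lowest of its group in both. Of the 81 tested genes, *Selp* was the 1 called between genotypes after LPS, where 1.31% of all genes were called, and none was called at baseline. It was lower in KO than wildtype mice with a log2FC of -1.02 (95% interval -1.98 to -0.064, edgeR, unadjusted p = 0.0378, adjusted p = 1), and its ranges overlapped.

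Of 7 tested enzymes that build selectin ligands on proteins such as PSGL-1, 5 rose and 1 fell in wildtype mice and 5 rose and 2 fell in KO mice, where 18.4% and 20.1% of all genes rose. *B4galt1* rose by 1.29 and 1.51 on the log2 scale (edgeR, adjusted p = 5.96e-07 and 2.72e-08) and *St3gal4* by 1.13 and 1.23, while *St3gal6* fell by 1.14 and 0.96. Of 19 tested genes that activate integrins or link them to actin, 2 rose and 5 fell in wildtype and 3 rose and 3 fell in KO mice. Over all genes, 18.4% rose and 17.4% fell in wildtype and 20.1% rose and 19% fell in KO mice. *Tln2*, the gene of talin-2, fell by 3.72 and 3.46 (edgeR, adjusted p = 1.58e-07 and 1.85e-07), *Parvg* fell by 1.35 and 1.18, and *Zyx*, the gene of the focal adhesion protein zyxin, rose by 1.03 and 1.27. Of 15 tested matrix ligands, 2 rose in each genotype, 4 fell in wildtype and 3 in KO mice, beside the same shares of all genes. *Spp1*, which encodes osteopontin, a ligand of *Cd44* and alphaV integrins, rose by 4.77 and 4.89 (edgeR, adjusted p = 2.35e-10 and 2.64e-11) and *Thbs1* by 3.07 and 2.86, whereas the laminin gene *Lama1* fell by 2.13 and 2.68 from a level of a few CPM.

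**Figure D5:**
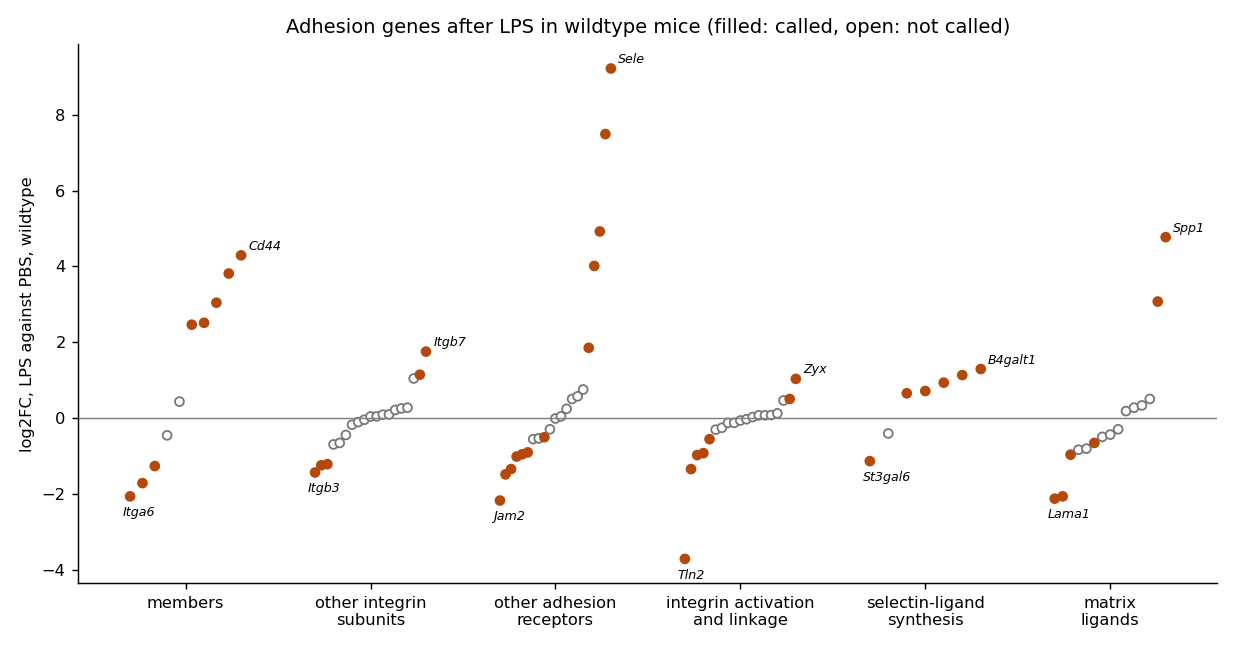
log2FC of LPS against PBS in wildtype mice (vertical axis) for the 10 members and the tested genes of 5 adhesion lists (horizontal axis); each point is 1 gene, ordered within its list, filled where the gene was called and open where it was not, with the lowest and highest called gene of a list named. The members reach from -2.07 (*Itga6*) to 4.29 (*Cd44*); the fitted values of *Sele* and *Selp* rest on baseline counts at or near 0.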

How the data were processed

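RNA of CD11b+ brain cells from 19 mice was sequenced as stranded, rRNA-depleted total RNA libraries. The deposited table holds whole-number read counts for each Ensembl gene, not normalized, which the authors made by trimming with Cutadapt and aligning and counting with STAR on GRCm39 (Ensembl release 108), replicates not pooled. The submitters' processing notes name STAR 2.7.9a and cutadapt 0.17.4, and the strand setting of the counting is not given in the sources used here.

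Groups were taken from the labels, which give separate mice and no batch, and 0 columns of values were left unused. The most alike libraries of a group differed by more than counting noise (chi-square per degree of freedom 6.5). Genes with low counts were removed by edgeR's filterByExpr at its defaults of 10 and, over all libraries, 15 counts, and 18739 of 56980 were tested in 1 fit of all 4 groups with edgeR 4.0.16 (TMM, quasi-likelihood test) in R 4.3.3 and Benjamini-Hochberg adjustment over all genes tested. The study used DESeq2, which was an alternative here (version 1.42.0). LPS calls needed an adjusted p under 0.05 and |log2FC| of at least 0.5, and genotype calls an unadjusted p under 0.05 and the same fold. The code was tested on simulated data. The members and lists were chosen with earlier results of these data known. Apart from the members, the text names the 3 called genes with the largest |log2FC| after LPS in wildtype mice of each adhesion list, the partner chains *Itgam*, *Itgb1*, *Itgb2*, *Itgb3* and *Itgb7*, and any list gene called between genotypes; 1 gene that this rule names is not reported here. Alternatives changed the scaling (DESeq2 size factors), the low-count filter, the rRNA and mitochondrial genes, the samples in the fit, the replicate block and the threshold, and left out each library in turn. Promoter sequences are from RefSeq. Those of *Vcam1*, *Selplg*, *Itgal* and *Itga6* were not used here. Comparisons of LPS with PBS and of KO with wildtype mice share groups, so they are not independent of each other.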

Additional observations from a re-analysis of the deposited data

Results flagged for a closer look

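In the KO mice at baseline, *Itgav* stood at 513 CPM in mouse 2, apart from the other 4 mice, of which the next was at 455 CPM. The gap was 0.797 of the range of the group, above Dixon's 95% critical value for 5 samples. This was 1 of 40 groups tested (10 genes in 4 groups), and chance flags about 1 in 20. Without that mouse the log2FC of *Itgav* after LPS in KO mice was -0.48, below the fold threshold.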

How the results depend on the processing

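Over 910 recomputed log2FC values of the members, 5 lost and 6 gained a call, and no called value changed sign, while 71 values that were not called did. Of the 11 changed calls, 9 were those of *Itgav* after LPS, at -0.46 to -0.55; besides the cases given with that gene, it also passed the fold threshold in wildtype mice at -0.51 with no low-count filter and at -0.51 with only the compared groups in the fit. Leaving out the library richest in oligodendrocyte RNA of each group was chosen after seeing the data. The number of members lower in KO than wildtype mice after LPS ranged from 0 to 1 when single libraries were left out: it was 1 (*Itgal*) without wildtype LPS mouse 2 and 1 (*Itga4*) without KO LPS mouse 3. The counts of members after LPS and at baseline otherwise stayed within 1.5 times under every alternative run. Same-numbered mice were not shown to be paired: correlations of their deviations ran from -0.042 to 0.576 for LPS against PBS, and with the replicate number as a block 5 members were higher and 3 lower in wildtype and 5 higher and 4 lower in KO mice, as without it, with *Cd44* at 3.96 and *Itgal* at 3.56 in wildtype mice. Over all genes, calls between genotypes depended more on the settings, some of which also changed how many genes were tested. After LPS, 102 higher and 143 lower in KO mice, of 18739 genes, became 347 and 507 of 34986 with no low-count filter. With only the compared groups they became 36 and 69 of 16940. The 150 called at baseline, of 18739, became 241 higher and 439 lower of 34986 with no filter. With the block they became 45 and 189 of 18739. The causes were not tested. The lowest level of any member in any library was 5.65 CPM (*Itgal*), above the 0.139 to 0.256 CPM that 3 counts stand for, so the depth did not limit the detection of a member.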
